A study of Mus musculus with 36 samples.

Results

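Mesenchymal stem cells (MSCs) are adherent stromal cells that can be grown from many tissues and can form bone, fat and cartilage cells. The DNA mismatch repair genes Msh6, Msh3, Pms2, Mlh3 and the nuclease gene Exo1 were followed here through RNA-seq and ATAC-seq of cultured mouse MSCs. They were taken by name, 5 of the 24411 genes listed for each library. The cells came from C57BL6/J mice, 8 weeks old and without any genetic change or treatment. They were grown from femoral bone marrow (fBM-MSCs), vertebral bone marrow (vBM-MSCs), adipose tissue (A-MSCs) and lung (P-MSCs). All were seeded on collagen I in MesenCult medium with the supplement MesenPure and a Rock inhibitor, and were used within 3 passages. Marrow was obtained by crushing bone, whereas adipose tissue and lung were minced and digested with collagenase, so tissue and isolation differ together between marrow and non-marrow MSCs. RNA-seq was analysed for 3 libraries each of P-MSCs, A-MSCs and fBM-MSCs and for 2 of vBM-MSCs. ATAC-seq, which maps open chromatin by transposase insertion, was available as 1 list of summits per tissue from pooled reads of 6 samples, which by their titles are 3 replicates sequenced in 2 runs each. The 4 tissues were collected from the same 3 mice, and no source says which libraries come from 1 animal.

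Mismatch repair removes bases that DNA polymerase has put in wrongly. A MutS dimer that contains Msh6 binds base mismatches and very small loops, and a MutS dimer that contains Msh3 binds larger insertion and deletion loops. MutL dimers, which contain Pms2 or Mlh3, are then recruited and nick the new strand, Exo1 degrades the nicked strand from 5′ to 3′, and the gap is filled by replication polymerases with the sliding clamp Pcna. In dividing cells many genes of DNA replication are transcribed as cells enter S phase, and these 5 genes are studied mainly for their roles in replication errors, meiotic recombination and repeat expansion.

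The 11 RNA-seq libraries held between 19569650 and 40517739 expected counts, an estimate of the reads of each gene, and fBM-MSC replicate 1 was the shallowest. Of 9 MSC surface markers, 8 or 9 reached 1 TPM in every library, TPM being RNA abundance scaled for transcript length and to a fixed sum. Markers of other cells were low or uneven. The summed TPM of 8 macrophage markers was 14.7 to 16.9 in P-MSCs, 17.8 to 27.1 in A-MSCs, 40.5 to 52.1 in fBM-MSCs, and 24.4 to 45.1 in vBM-MSCs, and came mostly from Lyz2, Cd68, Cd14 and Csf1r, while Fcgr1 was listed at 0 in all libraries and Adgre1 and C1qa stayed below 0.4 TPM. The 5 blood markers summed to between 0.91 and 79.2 TPM, nearly all of it Cd34 and highest in fBM-MSCs, with Hbb-bs listed at 0 throughout. Ptprc, the pan-leukocyte marker, was at 0.20 to 0.35 TPM in P-MSCs and at most 0.10 elsewhere. The 5 endothelial markers summed to 2.41 to 3.16 TPM in P-MSCs, 1.08 to 5.80 in A-MSCs, 0.01 to 1.06 in fBM-MSCs, and 0.01 and 0.98 in vBM-MSCs, and Kdr alone was at 2.33 to 2.84 TPM in P-MSCs and at most 0.55 elsewhere. The 4 epithelial markers reached 11.5 to 27.5 TPM in A-MSCs, almost all from Krt18, and at most 1.32 TPM elsewhere, with the lung epithelial gene Sftpc at 0. The part of these markers in the results below was not tested.

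The genes lie on 5 chromosomes of the mouse genome (mm10). Msh6 is at chr17:87975050-87990892 on the plus strand with 10 exons, and its last 34 bp overlap Fbxo11 on the other strand. Msh3 is at chr13:92211878-92355003 on the minus strand with 24 exons. Pms2 is at chr5:143910001-143931756 on the plus strand with 15 exons, and its start is 162 bp from that of Aimp2, a scaffold gene of the aminoacyl-tRNA synthetase complex that is read the other way. Mlh3 is at chr12:85234466-85270599 on the minus strand with 12 exons, and Exo1 is at chr1:175880778-175911396 on the plus strand with 15 exons. RNA-seq was not strand-specific, so reads from stretches where genes of opposite strands overlap cannot be assigned to a strand.

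The sequence upstream of Msh6, Pms2 and Mlh3 was read from the RefSeq promoter table (GRCm38.p6, the same assembly as mm10), and it is shown because the ATAC-seq summits of Pms2 and Msh6 fall within it and so that Mlh3, which had no such summit, can be set beside them. Capitals mark matches to a CCAAT box (CCAAT, the letters NF-Y binds), a GC box (GGGCGG) or an E2F motif (TTTCCCGC, TTTGGCGC, TTTGCCGC or TTTCGCGC), searched on both strands from 250 bases before to 50 bases after each start site. Bases are counted upstream of the start site, 5′ to 3′ on the strand of the gene.
Msh6, chr17:87974900-87975049, plus strand, bases -150 to -1: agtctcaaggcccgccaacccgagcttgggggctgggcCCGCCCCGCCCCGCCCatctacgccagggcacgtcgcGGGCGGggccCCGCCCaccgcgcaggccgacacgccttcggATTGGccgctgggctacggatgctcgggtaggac
Pms2, chr5:143909840-143910000, plus strand, bases -161 to -1, the whole stretch between the starts of Aimp2 and Pms2: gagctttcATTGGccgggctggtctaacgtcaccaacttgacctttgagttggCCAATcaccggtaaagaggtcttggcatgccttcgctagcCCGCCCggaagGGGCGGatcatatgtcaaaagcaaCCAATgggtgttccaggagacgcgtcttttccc
Mlh3, chr12:85270600-85270749, minus strand, bases -150 to -1: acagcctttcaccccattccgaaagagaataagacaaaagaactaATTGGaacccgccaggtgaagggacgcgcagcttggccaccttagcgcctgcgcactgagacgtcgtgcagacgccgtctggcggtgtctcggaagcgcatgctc

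Msh6 held 1 E2F match, at base 16 after the start site, and 5 GC boxes and 1 CCAAT box upstream, some GC boxes sharing bases. Pms2 held 3 CCAAT boxes and 2 GC boxes. Mlh3 held 1 CCAAT box and no GC box or E2F match in the window. Of all 32851 promoters in the table, 2.26% held an E2F match, 37.4% a CCAAT box and 35.7% a GC box. A match is a description of the letters and no evidence of binding.

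Among the 4 tissues, 4 of the 5 genes differed by edgeR's quasi-likelihood test at a Benjamini-Hochberg adjusted p under 0.05, and 60.6% of the 12509 genes tested did so as well. The adjusted p was 9.02e-07 for Exo1, 0.000111 for Msh6, 0.00288 for Msh3, 0.0035 for Pms2 and 0.106 for Mlh3. All 5 genes passed the filter on low counts, which asks for a CPM (counts scaled to library size) of 1 in at least 2 libraries. Exo1 passed it through A-MSCs, P-MSCs and vBM-MSC replicate 1, being below a CPM of 1 in the other 4 libraries. The same 4 genes were highest in P-MSCs, in every P-MSC library. The values were bulk measurements, in which fewer cells of a type and less RNA per cell cannot be told apart.

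**Figure D1:**
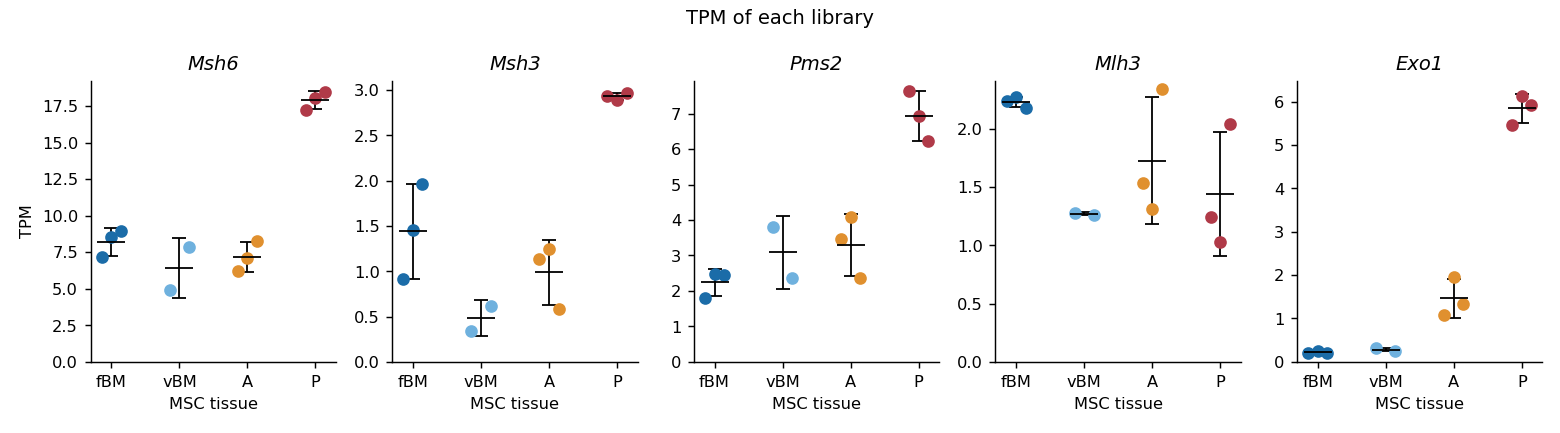
TPM of Msh6, Msh3, Pms2, Mlh3 and Exo1 in each RNA-seq library (points) by tissue, with the mean and SD (bars). The 3 P-MSC libraries lie above all other libraries for every gene but Mlh3, and Exo1 alone shows A-MSCs as a separate middle group.

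Msh6, the MutS partner for base mismatches, was the most abundant of the 5 genes in TPM in every library. Its TPM was 17.3, 18.04 and 18.5 in P-MSCs, 6.19, 7.13 and 8.24 in A-MSCs, 7.14, 8.55 and 8.97 in fBM-MSCs, and 4.94 and 7.86 in vBM-MSCs. The P-MSC libraries lay apart from all others, which overlapped among themselves. The tissue means were 17.9 ± 0.60 TPM in P-MSCs (SD, n = 3), 8.22 ± 0.96 in fBM-MSCs (n = 3), 7.19 ± 1.03 in A-MSCs (n = 3) and 6.40 ± 2.06 in vBM-MSCs (n = 2). P-MSCs exceeded fBM-MSCs by 2.003-fold (95% confidence interval 1.57 to 2.56, edgeR adjusted p 0.000364). They exceeded A-MSCs by 2.18-fold (1.71 to 2.78, edgeR adjusted p 0.000546) and vBM-MSCs by 2.67-fold (2.01 to 3.55, edgeR adjusted p 0.000146). The other 3 tissues, next to each other in this order, did not pass the test, with edgeR adjusted p between 0.155 and 0.58. The difference between fBM-MSCs and vBM-MSCs passed only without vBM-MSC replicate 2 (edgeR adjusted p 0.0468).

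Msh3, the MutS partner for insertion and deletion loops, was also highest in P-MSCs, with 2.93, 2.89 and 2.97 TPM. It was 0.91, 1.45 and 1.96 TPM in fBM-MSCs, 1.13, 1.25 and 0.58 TPM in A-MSCs, and 0.34 and 0.62 TPM in vBM-MSCs. P-MSCs did not overlap with any other tissue and varied least, with a coefficient of variation of 1.37% against 36.2% to 41.2% in the other tissues, whose values overlapped except for fBM-MSCs over vBM-MSCs. The vBM-MSC values rest on 26 and 57 expected counts. P-MSCs were 5.78-fold above vBM-MSCs (2.84 to 11.8, edgeR adjusted p 0.00142) and 2.61-fold above A-MSCs (1.46 to 4.65, edgeR adjusted p 0.0177). The difference from A-MSCs lost its call without A-MSC replicate 3 or without any single P-MSC library (edgeR adjusted p 0.0502 to 0.0613). Against fBM-MSCs the fold was 1.87 (1.05 to 3.31) and missed the threshold (edgeR adjusted p 0.0688), and it passed without fBM-MSC replicate 3 (0.0368), without A-MSC replicate 3 (0.0493), by limma-trend (0.0108) and in a fit of these tissues alone (0.0406).

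Between the marrow sites, Msh3 was the only one of the 5 genes called, at a background of 12.8% of tested genes. The level in vBM-MSCs was 0.32 times that in fBM-MSCs (0.16 to 0.64, edgeR adjusted p 0.0373). This call was lost without fBM-MSC replicate 2 or 3, without vBM-MSC replicate 1, or without any single P-MSC library, with edgeR adjusted p between 0.062 and 0.212. It was also lost by limma-trend (adjusted p 0.0529) and in the fit of these tissues alone (0.182). A-MSCs were 2.22-fold above vBM-MSCs (1.13 to 4.37), which missed the threshold (edgeR adjusted p 0.0814) and passed without A-MSC replicate 3 (0.0435).

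The RNA ratio of the MutS partners was read from TPM, which is scaled for transcript length. Protein of these genes was not measured, and the study names a possible bias of its RNA-seq towards 3′ ends. Msh6 was 5.89, 6.24 and 6.21 times Msh3 in P-MSCs, 5.48, 5.70 and 14.2 times in A-MSCs, 7.85, 5.90 and 4.58 times in fBM-MSCs, and 14.5 and 12.7 times in vBM-MSCs. Msh6 exceeded Msh3 in every library. The ratio in A-MSC replicate 3 lay within the vBM-MSC range and apart from the other A-MSC libraries, and it goes with the low Msh3 value of that library. The means were 6.11 ± 1.65 in fBM-MSCs (SD, n = 3) and 6.12 ± 0.20 in P-MSCs (SD, n = 3), so the ratio was similar in these tissues although both genes had higher TPM in P-MSCs.

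Pms2 encodes the MutL partner used in most mismatch repair. Its TPM was 7.64, 6.93 and 6.22 in P-MSCs, 3.46, 4.08 and 2.36 in A-MSCs, 1.80, 2.47 and 2.45 in fBM-MSCs, and 3.81 and 2.36 in vBM-MSCs. P-MSCs again stood above all other libraries, which overlapped. The tissue means were 6.93 ± 0.71 TPM in P-MSCs (SD, n = 3), 3.30 ± 0.87 in A-MSCs (n = 3), 3.09 ± 1.03 in vBM-MSCs (n = 2) and 2.24 ± 0.38 in fBM-MSCs (n = 3). P-MSCs were 2.84-fold above fBM-MSCs (1.85 to 4.36, edgeR adjusted p 0.00105), which held under every alternative tried. They were 2.09-fold above vBM-MSCs (1.29 to 3.38, edgeR adjusted p 0.0202) and 1.84-fold above A-MSCs (1.21 to 2.80, edgeR adjusted p 0.031). The first of these calls was lost without vBM-MSC replicate 2 (edgeR adjusted p 0.148) or P-MSC replicate 1 (0.0623). The second was lost without A-MSC replicate 1 or 3, or without any single P-MSC library (edgeR adjusted p 0.0551 to 0.11). Differences among the other 3 tissues did not pass the test, with edgeR adjusted p between 0.0947 and 0.706.

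Mlh3, the MutL partner best known from meiotic crossing over, had another order of tissues, with fBM-MSCs highest. Its TPM was 1.24, 1.03 and 2.04 in P-MSCs, 1.53, 1.31 and 2.34 in A-MSCs, 2.24, 2.27 and 2.18 in fBM-MSCs, and 1.28 and 1.26 in vBM-MSCs. The fBM-MSC libraries were close to each other and above vBM-MSCs and P-MSCs. A-MSCs and P-MSCs each spread widely, with coefficients of variation of 31.4% and 37.1%, and replicate 3 was the high library in both. No pair of tissues passed the test. P-MSCs were at 0.59 times the fBM-MSC level (0.37 to 0.94, edgeR adjusted p 0.0621), which passed without P-MSC replicate 3 (0.0208), without A-MSC replicate 3 (0.0483) and by DESeq2 (0.0496). Between fBM-MSCs and vBM-MSCs, vBM-MSCs were at 0.56 times (0.33 to 0.95, edgeR adjusted p 0.141). A test that misses the threshold does not show equal levels, and these intervals leave room for changes of more than 2-fold.

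The ratio of Pms2 to Mlh3 in TPM was 6.16, 6.73 and 3.05 in P-MSCs, 2.26, 3.12 and 1.01 in A-MSCs, 0.80, 1.09 and 1.12 in fBM-MSCs, and 2.98 and 1.87 in vBM-MSCs. The P-MSC libraries were the highest except that replicate 3 lay just under A-MSC replicate 2. The mean was 5.31 ± 1.98 in P-MSCs and 1.01 ± 0.18 in fBM-MSCs (SD, n = 3 each). Both MutL genes thus stood at similar TPM in fBM-MSCs, while Pms2 exceeded Mlh3 in every P-MSC library.

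Exo1, the exonuclease that removes the mismatched strand, varied most of the 5 genes. Its TPM was 5.47, 6.13 and 5.93 in P-MSCs, 1.09, 1.96 and 1.33 in A-MSCs, 0.21, 0.26 and 0.21 in fBM-MSCs, and 0.31 and 0.25 in vBM-MSCs. These values come from 826, 717 and 772 expected counts in P-MSCs, 124, 290 and 183 in A-MSCs, 15, 31 and 29 in fBM-MSCs, and 33 and 33 in vBM-MSCs. The levels were low in both marrow sites, intermediate in A-MSCs and high in P-MSCs, and only the marrow sites overlapped. P-MSCs were 23.6-fold above fBM-MSCs (15.1 to 37.0, edgeR adjusted p 7.81e-07), 19.7-fold above vBM-MSCs (11.7 to 33.2, edgeR adjusted p 5.33e-06) and 3.50-fold above A-MSCs (2.38 to 5.14, edgeR adjusted p 0.000483). A-MSCs were 6.75-fold above fBM-MSCs (4.41 to 10.3, edgeR adjusted p 2.72e-05) and 5.62-fold above vBM-MSCs (3.46 to 9.14, edgeR adjusted p 0.000312). These 5 calls held under every alternative tried. Exo1 in vBM-MSCs was 1.20 times the fBM-MSC level (0.74 to 1.94, edgeR adjusted p 0.636).

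Calls between tissues other than P-MSCs were few. Msh3 was called between the marrow sites, as given above. Exo1 was the only one of the 5 genes called between fBM-MSCs and A-MSCs, where 40.9% of tested genes were called, and between vBM-MSCs and A-MSCs, where 25.6% were. Against P-MSCs, 3 of the 5 genes were called for fBM-MSCs (background 47.7%), 4 for vBM-MSCs (38.7%) and 4 for A-MSCs (30.9%), and each of them was higher in P-MSCs. The 3 comparisons share the P-MSC libraries. Without A-MSC replicate 3, all 5 genes were called between fBM-MSCs and P-MSCs, Mlh3 lower and the others higher in P-MSCs.

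**Figure D2:**
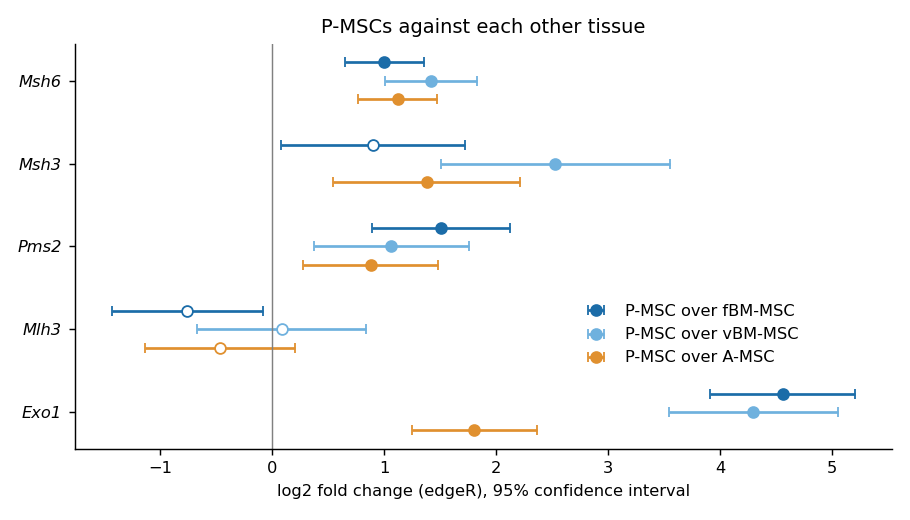
Log2 fold change of P-MSCs over fBM-MSCs, vBM-MSCs and A-MSCs for each gene from the edgeR fit of all 11 libraries, with 95% confidence intervals. Filled points have an adjusted p under 0.05, and all of them lie to the right of 0. Open points are Msh3 against fBM-MSCs and the 3 comparisons of Mlh3.

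Against the mean of the other 3 tissues, P-MSCs had higher levels of 4 of the 5 genes, at a background of 22.3% of tested genes called higher and 44.6% called in either direction. The log2 fold change was 3.56 for Exo1 (SE 0.20, edgeR adjusted p 3.42e-07), 1.60 for Msh3 (SE 0.30, edgeR adjusted p 0.00108), 1.18 for Msh6 (SE 0.13, edgeR adjusted p 2.45e-05) and 1.15 for Pms2 (SE 0.22, edgeR adjusted p 0.00129). For Mlh3 it was -0.38 (SE 0.26, 95% confidence interval -0.95 to 0.19, edgeR adjusted p 0.261). The median over all tested genes was -0.01. The 4 calls were kept and Mlh3 stayed uncalled under each alternative, including without each library in turn. From these same libraries the study had already linked mismatch repair genes to a cluster specific to P-MSCs. The 5 genes were chosen with earlier results known, so the 4 calls are no independent evidence for this pattern.

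The gene next to Pms2 was measured separately. Aimp2 averaged 171 TPM in P-MSCs, 143 in A-MSCs, 79.7 in fBM-MSCs, and 104 in vBM-MSCs. Aimp2 was called higher in P-MSCs than in fBM-MSCs (1.98-fold, 1.62 to 2.41, edgeR adjusted p 0.000105) and vBM-MSCs (1.56-fold, 1.25 to 1.95, edgeR adjusted p 0.00537), as was Pms2. It was 1.05 times as high in P-MSCs as in A-MSCs (0.86 to 1.27, edgeR adjusted p 0.739), where Pms2 was 1.84 times as high. The difference between these genes was not tested.

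In ATAC-seq, all genes but Mlh3 had an open promoter in each tissue. A summit with a −log10 q of at least 7 lay within 1 kb of the start site in 16 of the 20 gene and tissue pairs, and the 4 pairs without 1 were all Mlh3. Of 24963 annotated genes, 51.7% had such a summit in P-MSCs, 52.6% in A-MSCs, 50.7% in fBM-MSCs, and 51.6% in vBM-MSCs. The strongest promoter summits of Msh6 lay 68 to 142 bp upstream of the start site and those of Exo1 125 to 138 bp upstream, all between annotated genes. The strongest of Pms2 lay 35 to 108 bp upstream, within the sequence printed above. The strongest of Msh3 lay 284 to 328 bp inside Msh3, in an intron. Weaker promoter summits also passed inside Msh6, Msh3 and Exo1, and for Pms2 574 bp upstream in fBM-MSCs and 840 bp upstream in A-MSCs, in an intron of Aimp2.

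**Figure D3:**
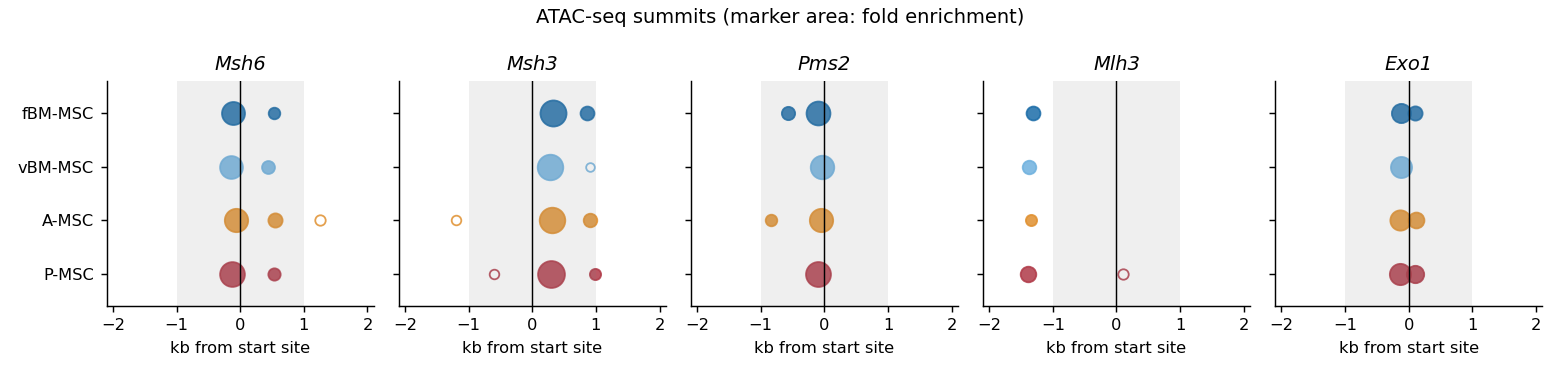
Positions of ATAC-seq summits within 2 kb of the start site of each gene (x, kb, negative upstream on the strand of the gene) in the pooled list of each tissue (rows). Marker area is proportional to fold enrichment, open markers have a −log10 q under 7, and grey marks 1 kb on either side. Mlh3 has summits about 1.3 kb upstream and, in P-MSCs, 1 open marker just inside the gene, and the other genes have the largest within 1 kb of the start.

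The strength of the strongest promoter summits differed little between tissues. The fold enrichment over the genome-wide background at the Exo1 promoter was 19.9 in P-MSCs, 18.03 in A-MSCs, 16.2 in fBM-MSCs, and 19.5 in vBM-MSCs. At the Msh6 promoter it was 26.9, 23.9, 23.2 and 22.8 in the same order. At the Pms2 promoter it was 27.2, 23.9, 25.0 and 24.3, and at the Msh3 promoter it was 31.6, 28.7, 29.8 and 28.7. P-MSCs had the highest value for each gene, but the counting intervals overlapped between all tissues, for Exo1 from 11.8 to 21.7 in fBM-MSCs and from 14.9 to 25.9 in P-MSCs. These intervals take 1 step of the deposited fold values as 1 count, which no source states. There is 1 pooled list per tissue, so no replicate error or test is available.

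The RNA range was wider than the promoter range for each of these genes. Between the highest and the lowest tissue, mean TPM differed 25.8-fold for Exo1, and the promoter fold enrichment 1.23-fold. For Msh3 the values were 6.10-fold in TPM and 1.10-fold in enrichment, for Pms2 3.09-fold and 1.14-fold, and for Msh6 2.80-fold and 1.18-fold. Over the 9765 tested genes with a promoter summit in both P-MSCs and fBM-MSCs, the median log2 ratio of enrichment in P-MSCs over fBM-MSCs was 0.25. That of Exo1 was 0.30, at the 54.9th percentile of these genes. The ratios of the other members lay below the median, at 0.21 for Msh6 (45.8th percentile), 0.12 for Pms2 (35.5th) and 0.09 for Msh3 (32.2nd). Among the 176 of 303 genes called at least 8-fold higher in P-MSC RNA that had both summits, the median was 0.42, and Exo1 lay at the 38.6th percentile.

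**Figure D4:**
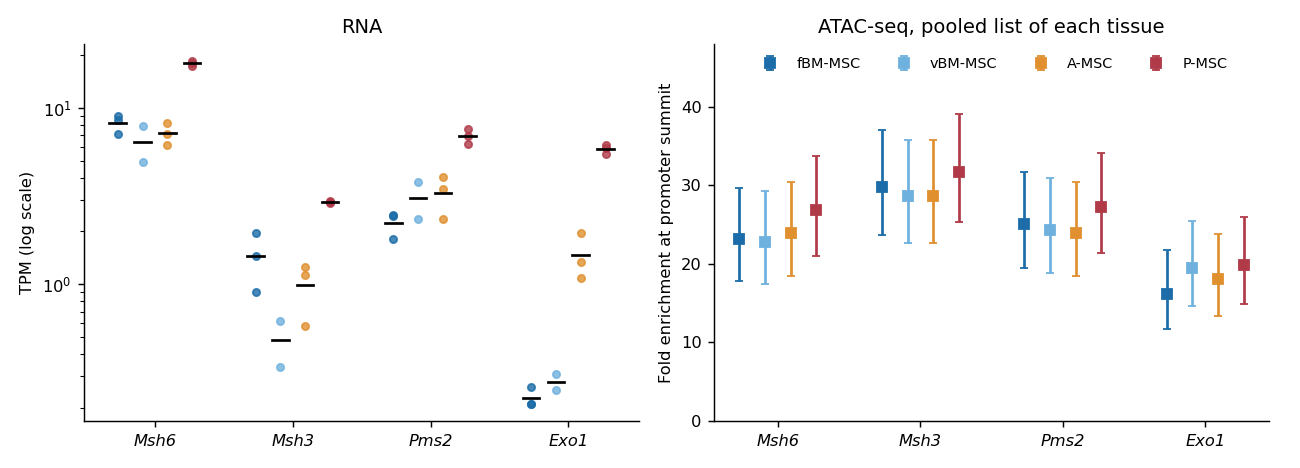
Left, TPM of each library (points, log scale) and tissue means (lines) of the 4 genes with a promoter summit. Right, fold enrichment of the strongest promoter summit in the pooled ATAC-seq list of each tissue, with 95% Poisson intervals that cover counting error only. Exo1 spans 25.8-fold in mean TPM on the left and 1.23-fold in enrichment on the right.

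Weaker summits had no common order of tissues. Leaving out the strongest promoter summit of each gene, 11 places in or beside the 5 genes had a summit in 2 or more tissues, counting summits within 200 bp of the next as 1 place and with a −log10 q of at least 7 in some tissue. The highest fold enrichment was in P-MSCs at 4 of them, in A-MSCs at 3, in fBM-MSCs at 3 and in vBM-MSCs at 1. The counting intervals overlapped between all tissues listed at 10 of the 11. P-MSCs were highest 94 to 116 bp after the Exo1 start site, with 13.2 against 11.04 in A-MSCs and 8.83 in fBM-MSCs, and no summit was listed there in vBM-MSCs. They were also highest in an intron of Msh3 near chr13:92241583, with 22.1 against 12.5 in A-MSCs, 14.7 in fBM-MSCs and 12.1 in vBM-MSCs, and in an intron of Pms2 near chr5:143917486, with 11.04 against 6.99, 6.99 and 4.78 (−log10 q under 7 in vBM-MSCs). P-MSCs were not highest at other places of Msh3 and at the weaker place of Msh6. Elsewhere in an intron of Msh3, near chr13:92274627, fBM-MSCs had 9.93, P-MSCs 7.36, A-MSCs 5.52 and vBM-MSCs 3.68 (−log10 q under 7 in vBM-MSCs), and 433 to 551 bp after the Msh6 start site A-MSCs had 8.83, vBM-MSCs 7.36, P-MSCs 6.62 and fBM-MSCs 5.89. For Mlh3, the nearest summits that passed lay 1312 to 1387 bp upstream, between genes, enriched 10.7-fold in P-MSCs, 5.52-fold in A-MSCs, 8.46-fold in fBM-MSCs and 8.09-fold in vBM-MSCs. Beyond the other end of Mlh3, A-MSCs had the highest value, 16.2 against 12.5 in vBM-MSCs, 9.57 in fBM-MSCs and 9.56 in P-MSCs. The place where intervals did not overlap was in an intron of Mlh3, with 10.3 in vBM-MSCs and 3.68 in A-MSCs (−log10 q under 7). A summit 103 bp inside Mlh3 was listed in P-MSCs with a −log10 q of 5.41, under the threshold.

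The other steps of mismatch repair and of DNA replication were compared in P-MSCs against the mean of the other tissues, from lists of genes by role. The background is that given above for this comparison, 22.3% of tested genes called higher and 44.6% called in either direction. Of 16 genes for the clamp, clamp loading, strand protection and gap filling, 14 rose and 1 fell, with a median log2 fold change of 1.39. Pcna, the clamp, averaged 368 TPM in P-MSCs, 191 in A-MSCs, 140 in fBM-MSCs, and 120 in vBM-MSCs, and its log2 fold change was 1.18 (SE 0.07, edgeR adjusted p 5.36e-07). The largest were Pole, the leading-strand polymerase (2.45), and Pold1, the catalytic subunit of polymerase delta (2.29). Pold4, a small subunit of polymerase delta, fell by 1.07, and Rpa3 was at 0.44 (edgeR adjusted p 0.0735). These and other exceptions to a list were named after their values were seen.

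Of 28 replication genes 27 rose, with a median of 2.06, and Gins3 alone was not called (0.89, edgeR adjusted p 0.0709). The largest were Cdc6, which loads the replicative helicase (3.30), and Uhrf1, which maintains DNA methylation at replication forks (3.21). All 20 mitosis genes rose, with a median of 2.68, led by the proliferation marker Mki67 (3.71) and the kinetochore gene Ndc80 (3.20). Exo1, at 3.56, was above all replication genes listed and below only Mki67 among the mitosis genes. Msh6 and Pms2, at 1.18 and 1.15, were close to Pcna.

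**Figure D5:**
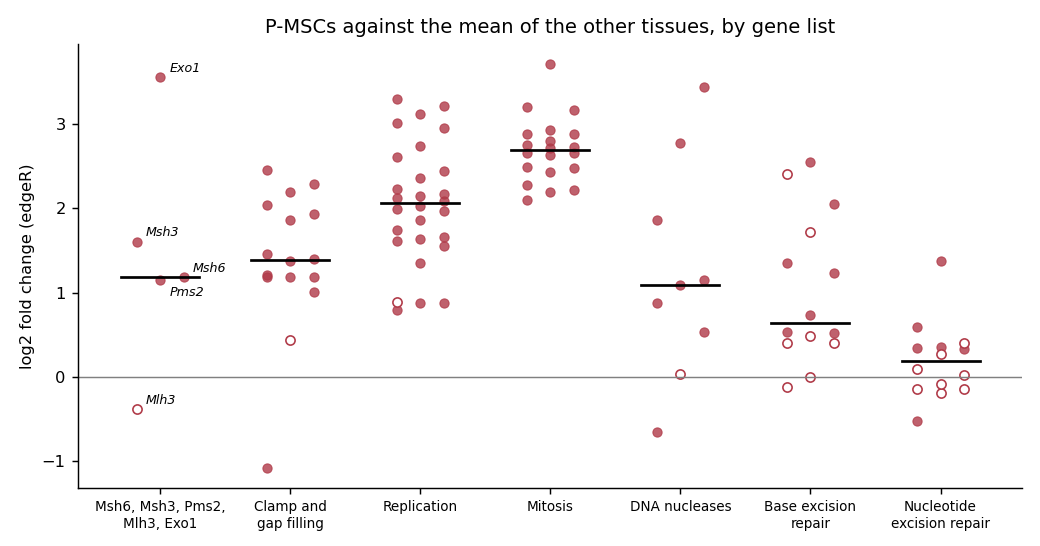
Log2 fold change in P-MSCs against the mean of the other tissues for each tested gene of 7 lists (points, filled where the adjusted p is under 0.05), with the median of each list (line). Exo1 lies at the level of the highest replication and mitosis genes, Msh3, Msh6 and Pms2 lie between 1.15 and 1.60, and Mlh3 lies below 0.

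Among 9 tested DNA nucleases of 10 listed, 7 rose and 1 fell, with a median of 1.08. The largest were Dna2, which trims flaps and resects ends (3.44, SE 1.03, edgeR adjusted p 0.0178), and Gen1, a resolvase of the same nuclease family as Exo1 (2.78). Fen1, the flap nuclease of that family, rose by 1.86, and Ercc5, its member in nucleotide excision repair, was at 0.03 (edgeR adjusted p 0.948). The exonuclease Trex1 fell by 0.65. Of 14 tested base excision repair genes of 15, 7 rose and none was called lower, with a median of 0.64, led by the glycosylases Neil3 (2.55) and Ung (2.05). Of 14 nucleotide excision repair genes, 5 rose and 1 fell (Cetn2, by 0.52), with a median of 0.19, and the largest were Ercc6 (1.37) and Ercc2 (0.59). These 6 calls of 14 are a share near the background of 44.6%. Pms1, a MutL gene without a settled repair role, was at 0.51 (edgeR adjusted p 0.277), and the meiotic MutS genes Msh4 and Msh5 did not pass the filter on low counts. The lists differ in their shares of called genes, and the differences between lists were not tested.

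Between fBM-MSCs and A-MSCs, Exo1 went with the replication and mitosis lists in its call. At the background of 40.9% called in either direction, 26 of 28 replication genes and 17 of 20 mitosis genes were higher in A-MSCs, 10 of 16 clamp and gap filling genes were higher, and Exo1 was higher while Msh6, Msh3, Pms2 and Mlh3 were not called, and the differences between these genes were not tested. Mki67 was not called either, with mean TPM of 0.45 in fBM-MSCs and 0.52 in A-MSCs, against 5.98 in P-MSCs. From A-MSCs to P-MSCs (background 30.9%), 20 replication genes and 17 mitosis genes were higher in P-MSCs, together with Exo1, Msh6, Msh3 and Pms2.

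Exo1 was also set against Pcna within each library. Exo1 TPM was 1.40%, 1.71% and 1.67% of Pcna TPM in P-MSCs, 0.57%, 1.001% and 0.72% in A-MSCs, 0.16%, 0.19% and 0.14% in fBM-MSCs, and 0.27% and 0.20% in vBM-MSCs. The share was lowest in marrow and highest in P-MSCs without overlap between marrow, A-MSCs and P-MSCs. For Msh6 the tissue means were 4.88% in P-MSCs, 3.76% in A-MSCs, 5.85% in fBM-MSCs, and 5.27% in vBM-MSCs. Those of Pms2 were 1.88%, 1.72%, 1.59% and 2.60% in the same order, and those of Msh3 0.80%, 0.51%, 1.02% and 0.39%. Those of Mlh3 were 0.39% in P-MSCs, 0.91% in A-MSCs, 1.59% in fBM-MSCs, and 1.06% in vBM-MSCs. Pcna itself averaged 368 TPM in P-MSCs against 120 to 191 in the other tissues. A gene with equal TPM in all tissues would therefore also have its lowest share in P-MSCs, and Mlh3 was called in no pair. These shares were not tested.

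The genes most like each of the 4 called genes were found by the root mean square difference of log2(TPM + 1) profiles over the 11 libraries, each centred on its mean. Nearest to Exo1 were the helicase subunit Mcm2 (0.159), Rad54l (0.187), Mcm6 (0.191), Arhgap19 (0.206) and the centromere gene Cenpn (0.211). Rad54l, which acts in homologous recombination, averaged 5.74 TPM in P-MSCs, 1.67 in A-MSCs, 0.27 in fBM-MSCs, and 0.29 in vBM-MSCs. Of the 50 genes nearest to Exo1, 7 were on the replication or mitosis lists, which hold 48 of the 12509 tested genes, and 13 were when 0.1 was added in place of 1. With log2(TPM + 1), none of the 50 nearest to Msh6, Msh3 or Pms2 was on these lists. The distance is not scaled for the size of change. In P-MSCs against the mean of the others, the median log2 fold change was 2.06 for replication and 2.68 for mitosis. It was 1.15 to 1.60 for Msh6, Msh3 and Pms2, so the absence of list genes does not show a different pattern. Nearest to Msh6 were Tbx2 (0.115), the folate enzyme gene Mthfd1 (0.120), Wdr46 (0.136), Eftud2 (0.136) and Nudc (0.142). Nearest to Msh3 were Hmces (0.191), Wdr90 (0.195), St3gal1 (0.198), Prpf19 (0.203) and Gps2 (0.206). Nearest to Pms2 were Rad9a, a DNA damage checkpoint clamp gene (0.166), Raver1 (0.172), Plagl2 (0.173), Hmgb1 (0.184) and Hnrnpl (0.186). These names depend on the added 1, which compresses differences at low TPM. Mcm2 averaged 54.4 TPM in P-MSCs and 8.12 in vBM-MSCs, a smaller range than that of Exo1, and Tbx2 averaged only 2.42 TPM in P-MSCs and 0.39 in vBM-MSCs. With 0.1 added instead, the 5 nearest genes still held 4 of the 5 named for Pms2 and 3 of the 5 for Msh6, but 0 of the 5 for Msh3 and 0 of the 5 for Exo1.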

How the data were processed

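RNA-seq and ATAC-seq values of mouse MSCs were used as deposited. The authors used Smart-seq2, which primes on poly(A) and does not keep the strand, and ran RSEM with STAR against mm10. The deposited expected counts are RSEM's estimates and are not normalized, and the authors' TPM values are scaled for effective transcript length. The FPKM values that the authors deposited from RSEM and the integer score that their MACS2 run gave each summit were not analysed. Per the labels and methods, ATAC-seq reads were trimmed with Trim Galore, aligned with Bowtie, deduplicated with Picard, shifted for Tn5 insertion, cleared of blacklisted regions and pooled per tissue for MACS2. The deposited lists give each summit's fold enrichment, a ratio, and its −log10 q. The versions of these tools are not given in the sources used here. Replicate 3 of vBM-MSCs was not analysed here for RNA-seq.

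The test was the two-sided quasi-likelihood F test of edgeR 4.0.16 (R 4.3.3) on rounded expected counts (TMM, 1 fit of 11 libraries in 4 groups, a minimum CPM of 1 in 2 or more libraries, Benjamini-Hochberg adjustment over 12509 genes, called under 0.05). The code was tested on simulated data. Depth was 19569650 to 40517739 expected counts per library, and the median biological coefficient of variation was 19.8%. The libraries are labelled as biological replicates of 3 mice and were treated as independent. Alternatives were RLE size factors, no filter, a replicate block, DESeq2 1.42.0, limma-trend (limma 3.58.1) on log2(TPM + 1), the libraries of the compared tissues alone, and leaving out each library.

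Summits with a −log10 q of at least 7, the study's threshold, within 1 kb of a curated RefSeq start site counted as promoter summits. The fold values in all 4 lists were whole multiples of 0.368 (100% within 0.02 of a whole multiple), so the lists share 1 scale, and the number of steps was taken as a count for exact 95% Poisson intervals. That 1 step is 1 count is an assumption that no source states, and the intervals rest on it. They cover counting error only. Of the 5 genes, 4 matched the RefSeq promoter table.

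The 5 genes and the gene lists were chosen with earlier results of these data known. Among the study's results was a gene cluster specific to P-MSCs with mismatch repair as a predicted pathway. Named genes were the 5 members, genes starting within 1 kb on the other strand, the 5 nearest in profile of each member called among the 4 tissues with at least 2-fold between highest and lowest tissue mean, Pcna, Mki67, Pms1 and the 2 called genes of each list with the largest change in P-MSCs against the mean of the others. Some results under this rule and the motifs of Msh3 are not reported here. The nearest genes with log2(TPM + 0.1) and the grouping of weaker summits were added after seeing the data.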

Additional observations from a re-analysis of the deposited data

How the results depend on the processing

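For the log2 fold change of each gene in each pair of tissues and in P-MSCs against the mean of the others, 589 alternative values were computed for 35 values. Direction and side of the threshold stayed in 554, 20 lost the threshold, 10 gained it and 5 turned in direction. The turned values were all uncalled. Mlh3 in vBM-MSCs over P-MSCs was 0.14 with the replicate block. Without 1 library at a time it ranged from -0.27 to 0.24, turning without vBM-MSC replicate 2 and without P-MSC replicate 3. Pms2 in fBM-MSCs over vBM-MSCs ranged from -0.82 to 0.056, turning without vBM-MSC replicate 1, and Pms2 in vBM-MSCs over A-MSCs from -0.68 to 0.19, turning without vBM-MSC replicate 2. Without 1 library at a time, the number of the 5 genes called ranged from 0 to 2 between fBM-MSCs and vBM-MSCs, from 3 to 5 between fBM-MSCs and P-MSCs, from 1 to 2 between vBM-MSCs and A-MSCs and from 2 to 4 between A-MSCs and P-MSCs. Between fBM-MSCs and vBM-MSCs it was 0 with limma-trend, 0 in the fit of the libraries of these tissues alone and 0 with the replicate block. The cause was not tested.

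Whether the replicate numbers pair the libraries by mouse is not known. The correlation of deviations from the tissue means in 15 pairs of libraries with the same number was -0.03 to 0.12, with 1 above 0.1. In 30 pairs with different numbers it was -0.12 to 0.11, also with 1 above 0.1. Deviations within a tissue must cancel over few libraries, so these values cannot decide on pairing. With the replicate block, the genes called among all 12509 numbered 1326 between fBM-MSCs and vBM-MSCs, against 1601 without it. The edgeR adjusted p with it was 0.0694 for Msh3 between fBM-MSCs and vBM-MSCs, where the call was lost, and 0.0278 for Mlh3 between fBM-MSCs and P-MSCs, where a call was gained, and no other call of the 5 genes changed. The fBM-MSC and vBM-MSC comparison called 305 genes in the fit of these libraries alone and 610 without vBM-MSC replicate 1. Promoter summits numbered 16 of 20 at a −log10 q of 20 or within 500 bp, 17 without a threshold and 20 within 2 kb. Of the 50 genes nearest to Exo1, 13 were on the cell cycle lists with log2(TPM + 0.1), and 6 to 10 without 1 library at a time. Exo1 in marrow rests on 15 to 33 expected counts and Msh3 in vBM-MSCs on 26 and 57. The size of change that could be detected at such low counts was not tested.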
